A study of Arabidopsis thaliana with 12 samples.

Results

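In rosette leaves of Arabidopsis thaliana, 49 of 22746 probe sets gave a clear signal on the 3 arrays of plants held in the high dose of formaldehyde gas and stayed at the level of the background on the 9 other arrays. They were chosen by their deposited log2 expression values: above 6 on all 3 high arrays, and at or below 4 on each of the 9 arrays of the other groups. The same limits held for 57 probe sets, of which 8 (among them small heat shock proteins, the co-chaperone Hop3, the glycosyltransferase gene UGT73C1 and the transporter gene AT2G04050) were set aside. Because the limits were set on these very values, the contrast between the high group and the rest is a description of the 49 and carries no test.

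The study exposed wild-type plants of the ecotype Columbia, aged 7 weeks, after 72 h of acclimation in constant light at 24 °C. For 150 min, 3 plants stood outside the exposure chamber in room air with less than 0.08 ppm formaldehyde. Further sets of 3 plants stood inside it in clean air (less than 0.04 ppm), in the low dose (1 to 2 ppm) or in the high dose (14 to 16 ppm). Each of the 12 plants gave about 100 mg of leaf and 1 Affymetrix array. The 3 plants of each chamber condition were exposed together, so chamber run and condition cannot be told apart, and the replicates measure the spread between plants kept together.

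Formaldehyde is a small electrophile that reacts with thiol and amino groups of proteins and nucleic acids. Plant cells meet such damage with chaperones that hold unfolding proteins, with glutathione transferases and glycosyltransferases that tag reactive compounds for removal, and with transcription factors, kinases and secreted peptides that spread a stress or immune signal. Many genes of these kinds are almost silent in unstressed leaves, which is the pattern that the limits of 6 and 4 select.

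The values of every array ended at a common floor of 2.11, which 26.4% to 28.3% of an array's probe sets shared. Array medians ran from 5.71 to 5.90, arrays of a group correlated at r = 0.985 to 0.996 across probe sets, and no 2 arrays were identical. The control probe sets for housekeeping transcripts gave a 3′ signal minus 5′ signal, a difference that grows with RNA breakdown. It averaged 2.30 ± 0.04 outside, 2.42 ± 0.07 in clean air, 2.67 ± 0.10 in the low dose and 2.77 ± 0.25 in the high dose (log2, SD, n = 3). The arrays of the low dose (2.57 to 2.76) and of the high dose (2.57 to 3.05) all lay above those of clean air (2.38 to 2.50). Of 16 leaf mesophyll markers 3 could be read (RCA, SBPASE and PRK). They were above 4 on all 12 arrays, and their summed log2 level was 42.0 to 42.8 in clean air and 39.0 to 40.0 in the high dose. The phloem marker SWEET11 (1 of 4 listed could be read) lay at 11.8 to 12.6 in the high dose and 12.7 to 13.0 in clean air. The trichome marker TRY (1 of 3) lay at or below 3.20 in the high dose and at 4.29 to 6.13 in clean air. The guard cell marker FMA (1 of 3) lay at 4.76 to 5.86 in the high dose and 5.58 to 6.04 in clean air. The root hair markers EXPA7 and EXPA18 (2 of 4 root markers) were at 2.11 in both groups, and no seed or pollen marker could be read. In leaf tissue of mixed cells, fewer cells of a type and less RNA per cell cannot be told apart, and the part of these shifts in the results was not tested.

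Of the 49 probe sets, 20 were paired with a single gene, 2 with several genes and 27 with none in the annotation used here. The named share, 40.8%, was below that of the whole array (59.2%). The mean log2 level of the 49 in the high dose ran from 6.36 to 13.26 with a median of 8.39. It was above 10 for 11 of them, between 8 and 10 for 19 and below 8 for 19. On the 9 other arrays 364 of the 441 values were below 3 and 95 were exactly at the floor of 2.11. All 9 values were below 3 for 32 of the 49, and all 9 were at the floor for 6. The gain is therefore given as a lower bound, the mean in the high dose over the level 4, and this bound ran from 5.15-fold to 612-fold with a median of 21.0-fold. Each probe set binds its target with its own strength, so these levels give no order of transcript amounts between genes.

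**Figure D1:**
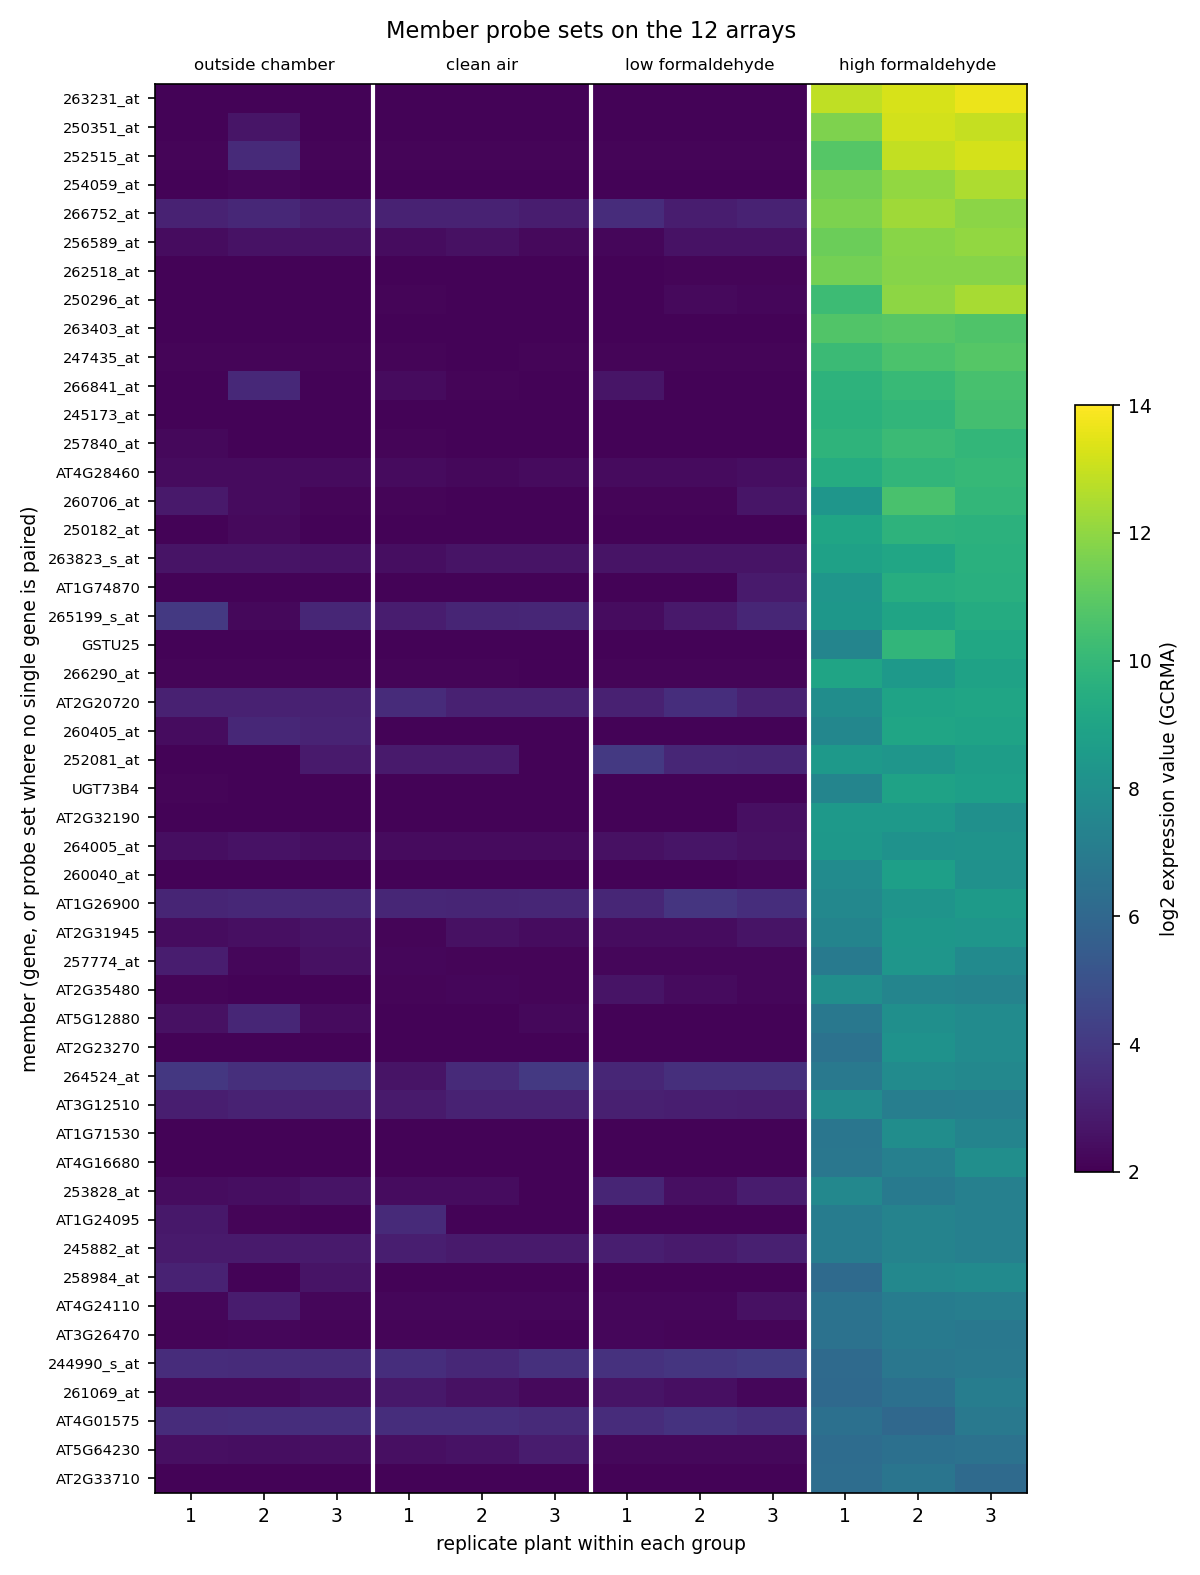
Heat map of the log2 expression values (colour scale from 2 to 14) of the 49 probe sets (rows, ordered by their mean in the high dose) on the 12 arrays (columns, 3 replicate plants for each of the 4 groups). The 3 columns of the high dose are above 6 in every row, and the other 9 are at or below 4.

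Peptides that cells release as alarm signals were represented by AT4G28460 and AT2G23270, both of the PAMP-induced secreted peptide family, named for its induction by microbial patterns. AT4G28460 read 9.43, 9.91 and 10.05 in the high dose (log2, replicates 1 to 3). Its values were 2.33, 2.33 and 2.33 outside the chamber, 2.33, 2.24 and 2.33 in clean air and 2.34, 2.36 and 2.43 in the low dose. All 3 high plants thus lay far above the other 9, whose values ran from 2.24 to 2.43, and the mean of 9.80 ± 0.32 (SD, n = 3) was at least 55.6-fold above the level 4. AT2G23270 read 6.51, 8.10 and 7.79 in the high dose and sat at the floor of 2.11 on all other arrays. Replicate 1 was the lowest of the 3 plants for both peptide genes, and the bound for AT2G23270 was 11.1-fold.

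Enzymes that conjugate foreign compounds were GSTU25, a tau class glutathione transferase, and UGT73B4, a glycosyltransferase. GSTU25 read 7.44, 9.89 and 9.16 in the high dose and 2.11 on each of the 9 other arrays. Its 3 high plants spread over 2.45 log2 units, the widest range among the named genes here, with replicate 1 lowest. The mean of 8.83 ± 1.26 (SD, n = 3) was at least 28.5-fold above the level 4. UGT73B4 read 7.45, 8.93 and 8.80 in the high dose and 2.11 to 2.15 elsewhere, a gain of at least 21.0-fold. The probe set 265199_s_at is shared by several genes, so it was given no name or role and was not counted among these enzymes. It read 8.33, 9.01 and 9.39 in the high dose. It varied more at the low end, from 2.26 to 3.99 outside the chamber.

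Regulators formed a group of 4 genes. AT1G74870, of the RING finger family to which many ubiquitin ligases belong, read 8.29, 9.49 and 9.56 in the high dose and 2.12 on 8 of the other arrays, with 2.88 on replicate 3 of the low dose. Its mean was 9.11 ± 0.72 (SD, n = 3), at least 34.6-fold above the level 4. The protein kinase gene AT1G71530 read 6.73 to 7.90 in the high dose and was at the floor on all other arrays. AT2G33710, a transcription factor of the AP2/ERF family, whose members answer to ethylene and stress, read 6.28, 6.66 and 6.15 (mean 6.36 ± 0.26, SD, n = 3) and at most 2.12 elsewhere, so that it lay only just above the limit of 6. AT3G12510, of the MADS-box family, read 7.80, 7.13 and 7.19 against 2.86 to 3.15 on the other arrays. Replicate 1 was the lowest high plant for AT1G74870 and AT1G71530 and the highest for AT3G12510.

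Genes for membrane, cell wall and defence proteins were AT2G32190, AT5G12880, AT3G26470 and AT4G01575. AT2G32190 encodes a short protein with a cysteine-rich transmembrane module, a family tied to stress tolerance. It read 8.43, 8.49 and 8.00 in the high dose and 2.11 to 2.48 elsewhere, with a close agreement of the 3 high plants (mean 8.31 ± 0.26, at least 19.8-fold). AT5G12880, of a proline-rich family, read 6.80, 7.97 and 7.79 in the high dose. Its other values were 2.56, 3.30 and 2.37 outside the chamber, 2.13, 2.12 and 2.24 in clean air and 2.12, 2.13 and 2.13 in the low dose, so that the outside plants were the upper ones among the 9. AT3G26470, with the RPW8 domain of plant disease resistance proteins, read 6.54, 6.92 and 6.81 against 2.14 to 2.22. AT4G01575, a Kazal-type protease inhibitor, read 6.41, 6.07 and 6.87 against 3.44 to 3.77, with replicate 2 the lowest.

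Genes for RNA-related proteins were AT2G20720 and AT1G26900, of the large pentatricopeptide repeat family that acts on organelle RNA, and AT4G16680, a helicase-like protein. AT2G20720 read 7.87, 8.95 and 9.06 in the high dose and 3.09 to 3.56 elsewhere, a gain of at least 24.7-fold. AT1G26900 read 7.60, 8.22 and 8.56, with 3.28, 3.86 and 3.58 in the low dose and 3.25 to 3.35 on the 6 arrays of clean air and outside plants. AT4G16680 read 6.76 to 7.91 and was at the floor on the other 9 arrays. In all 3 of these genes replicate 1 was the lowest high plant.

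The 5 remaining named genes have no role common to them. AT2G31945 read 7.39, 8.36 and 8.33 in the high dose and 2.16 to 2.63 elsewhere. AT2G35480 read 7.92, 7.44 and 7.35, with replicate 1 the highest, and its values in the low dose were 2.65, 2.35 and 2.21 against at most 2.21 in clean air. AT1G24095, of a thiol-disulfide oxidoreductase family, read 7.02, 7.38 and 7.24, a range of 0.36, while replicate 1 of clean air stood above the other arrays at 3.44. AT4G24110, a gene known for its induction by low oxygen, read 6.58, 7.03 and 7.12. AT5G64230 read 6.22, 6.41 and 6.51, with 2.25 on each low array, 2.49, 2.56 and 2.89 in clean air and 2.43 to 2.48 outside. The bounds of these 5 ran from 5.20-fold to 16.3-fold.

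**Figure D2:**
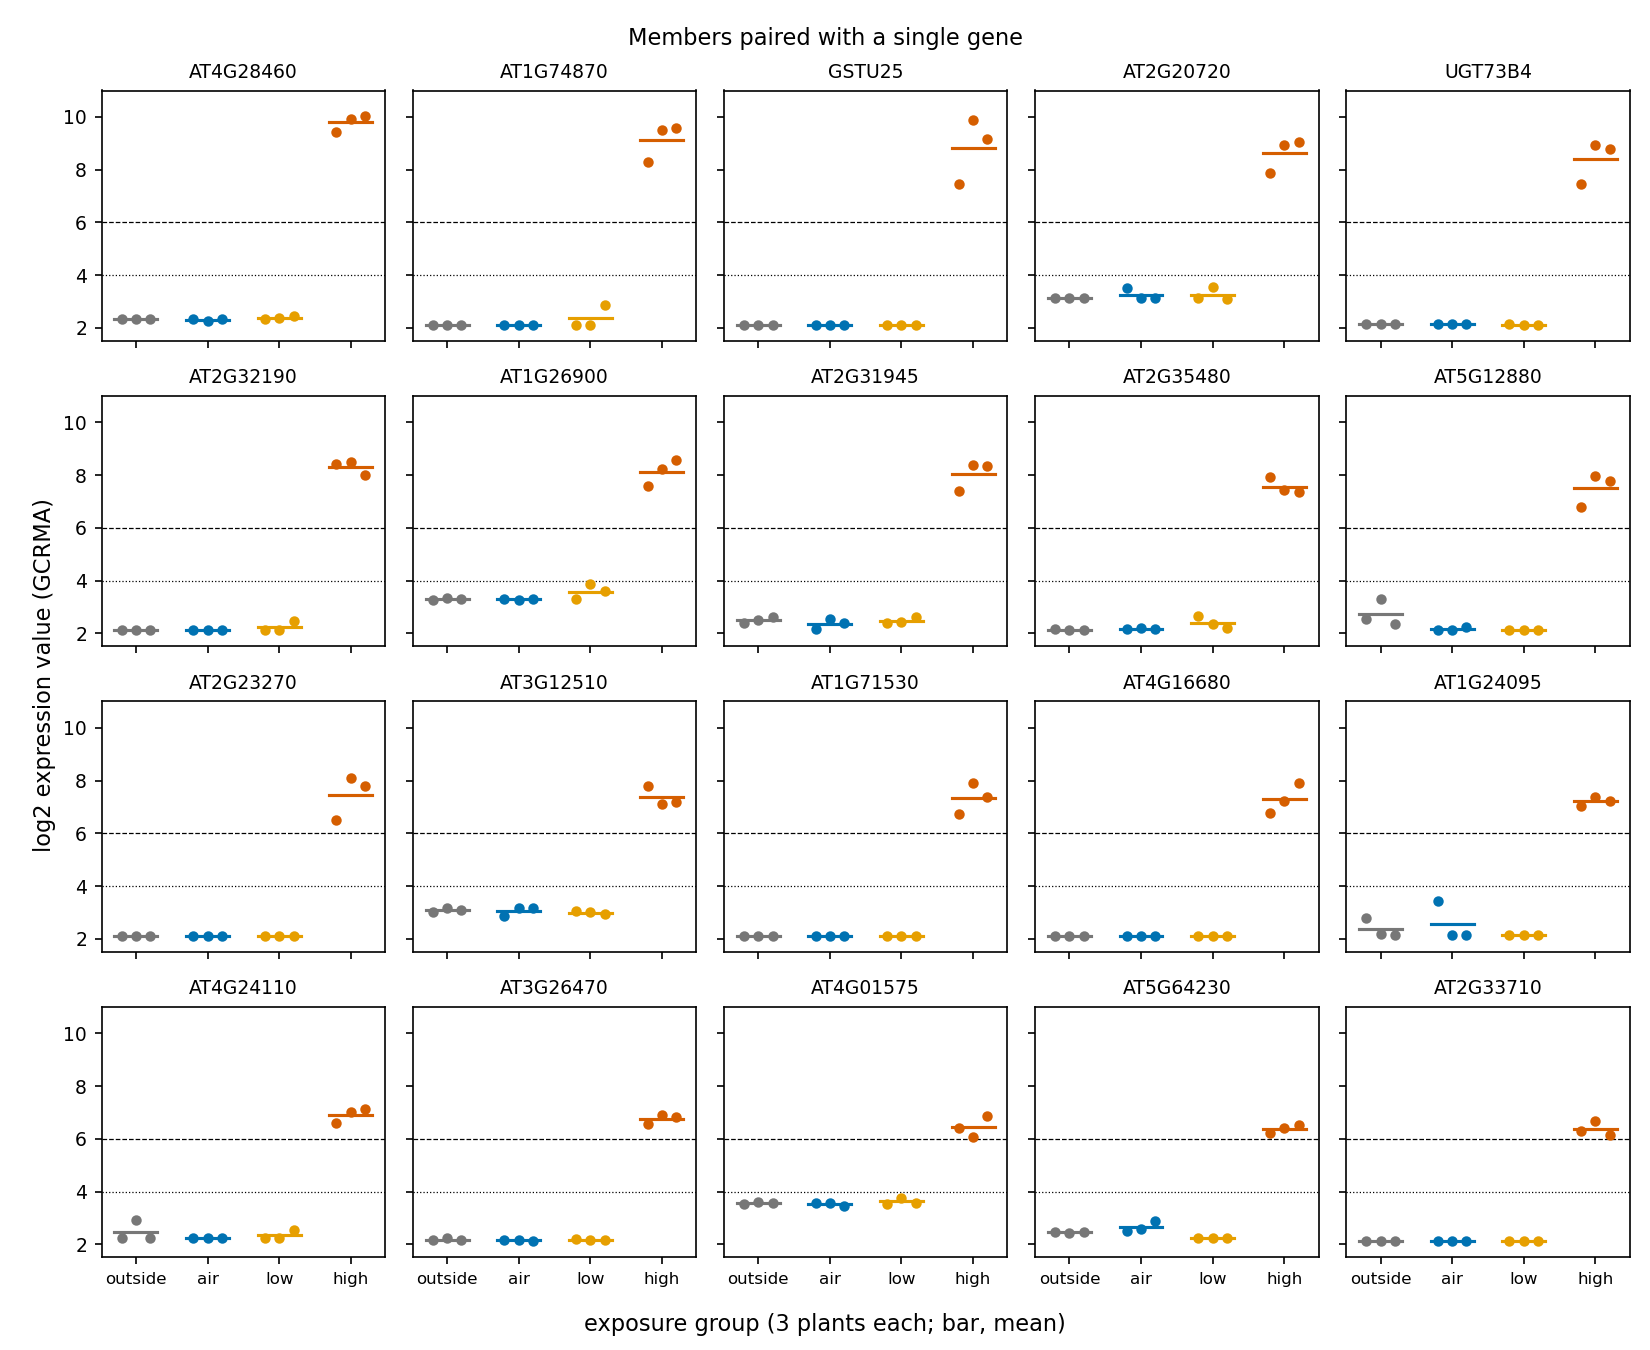
Log2 expression values of the 20 named genes (panels) in the 4 groups; each point is 1 of 3 plants, the bar is their mean, the dotted line is the level 4 and the dashed line the level 6. The points of the high dose spread by 0.28 to 2.45 log2 units within a gene, and those of the other groups all lie below 4, the highest at 3.86 (AT1G26900).

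The mean in the high dose of the 29 probe sets without a single gene ran from 6.53 to 13.26 (median 9.51), and that of the 20 named ones from 6.36 to 9.80 (median 7.49). The 3 with the highest means were picked after their values were seen. The first, 263231_at, read 12.86, 13.26 and 13.64 in the high dose and 2.11 on each other array, at least 612-fold above the level 4. For 250351_at the 3 values were 11.66, 13.16 and 12.96, with a single other array (replicate 2 outside) off the floor at 2.67. For 252515_at they were 10.83, 12.88 and 13.21, and replicate 2 outside again stood out at 3.41, while the other 8 arrays read 2.17. By contrast, 263403_at read 10.76, 10.88 and 10.68, a range of 0.20. Probe sets with the suffix s_at, whose probes match several transcripts, made up 3 of the 49, where the whole array had 4.11%.

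The values of the 49 differed between the 3 high arrays. Replicate 1 was the lowest of the 3 in 39 of the 49 probe sets (79.6%), replicate 2 in 6 and replicate 3 in 4. Replicate 1 minus the mean of the other two had a median of -0.64 log2 units and ran from -2.22 (252515_at) to 0.64 (AT3G12510). It was below -1 in 13 of the 49 (26.5%). Among those were GSTU25 (-2.08), AT2G23270 (-1.43), UGT73B4 (-1.41), AT1G74870 (-1.24), AT2G20720 (-1.13) and AT5G12880 (-1.08). In 6 of the 49 replicate 1 was above that mean, including AT2G35480 (0.53) and AT2G32190 (0.19).

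The shift was set beside that of other probe sets above 6 on all 3 high arrays. Of these 10488, replicate 1 was the lowest in 33.3%, with a median of 0.07, and 2.45% were below -1. Of the 549 among them that rose more than 4-fold over clean air (limma, adjusted p under 0.05), replicate 1 was the lowest in 51.7%, with a median of -0.14, and 11.7% were below -1. These shares describe probe sets of the same 3 plants, which are no replicates of each other, so the difference in shares carries no test. Across the 49, replicates 2 and 3 correlated at r = 0.982, and replicate 1 with them at 0.926 and 0.941. Replicate 1 also had the largest 3′ minus 5′ control signal of the 3 (3.05, against 2.70 and 2.57), and its part in the lower values was not tested.

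**Figure D3:**
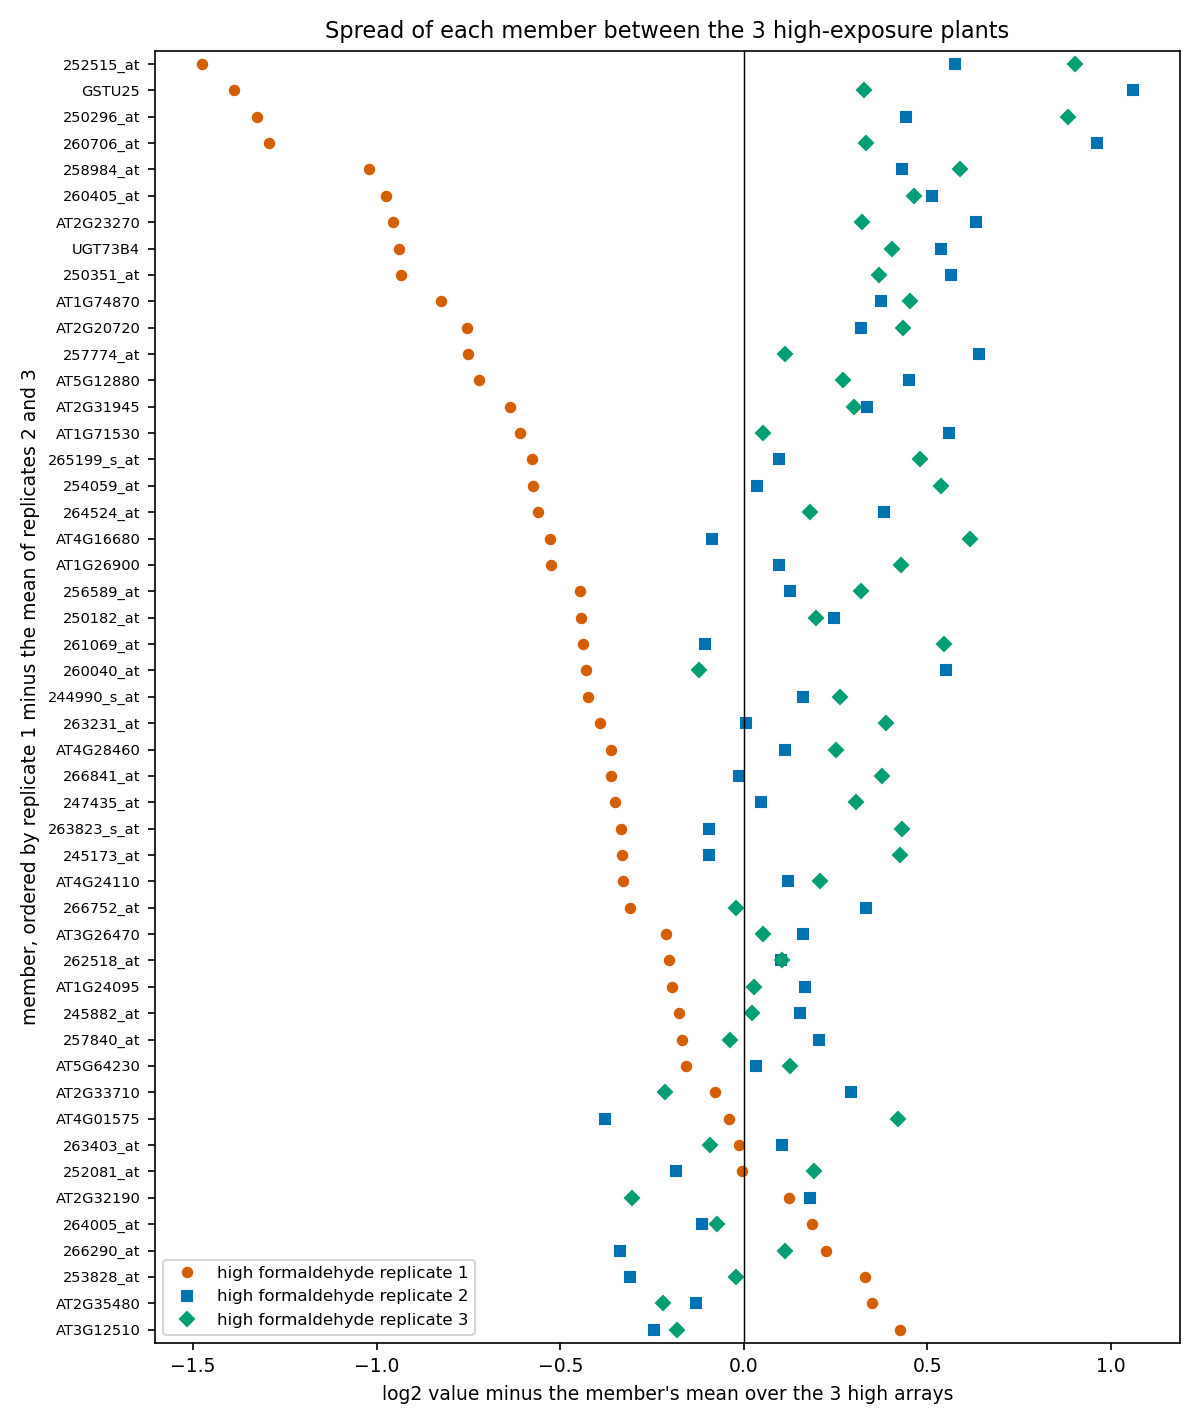
Deviation of each of the 3 high-dose plants from the mean of the 3 (log2 units, horizontal axis) for the 49 probe sets (vertical axis, ordered by replicate 1 minus the mean of the other 2). Replicate 1 is left of both other plants in 39 rows, down to GSTU25 and 252515_at at the top, and right of both in 5 rows, among them AT3G12510 and AT2G35480 at the bottom.

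The rule held the low dose, clean air and the outside plants at or below 4, so differences among these 9 arrays are given as values with no test, and a value below 4 carries little information. All 49 passed the filter of the fit (above 4 on at least 3 arrays) through the 3 high arrays alone. The 77 values between 3 and 4 were spread over outside plants (29), clean air (22) and low dose (26).

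All low-dose plants lay above all 6 plants of clean air and of the outside in 3 of the 49 probe sets (6.12%). The same held for 10.2% of all probe sets and for 1.42% of the 8663 probe sets at or below 4 on all 9 arrays. A probe set whose low-dose values sit at the floor cannot meet this condition. The share of such probe sets among the 8663 was not counted, so these percentages are not like for like and carry no test. The 3 of the 49 were picked after their values were seen. For 252081_at the low dose read 3.98, 3.27 and 3.26, clean air 2.88, 2.88 and 2.11 and the outside plants 2.13, 2.11 and 2.88. The others were 244990_s_at, at 3.70, 3.86 and 3.98 against 3.32 to 3.65, and AT4G28460, whose low values of 2.34 to 2.43 lay next to 2.33 near the floor.

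The limits cut through a wider set. From clean air at or below 4 on 3 arrays to above 6 on all 3 high arrays went 91 probe sets. Of these, 57 met the full rule, 11 had an outside plant above 4, 11 a low-dose plant above 4 and 12 both. All 3 low arrays were above 4 for 13 of the 91, and 8 had a low array above 6. The same limits with another group as the high one found 1 probe set for the plants outside the chamber, 0 for clean air and 0 for the low dose. The mirrored limits (high at or below 4, all others above 6) found 7.

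Just inside the limits lay 265199_s_at (highest other value 3.99), 244990_s_at (3.98), 252081_at (3.98), 264524_at (3.97) and AT4G01575 (lowest high value 6.07). Just outside lay AT5G10820, which read 7.27, 7.26 and 7.06 in the high dose but 4.08 on replicate 2 outside, and AT5G46295, at 5.91, 6.85 and 6.41. They were followed by 255891_at (lowest high value 5.90), bZIP52 (5.82, with 4.07 on replicate 2 outside) and AT5G40460 (5.81). In AT5G46295 and 255891_at it was replicate 1 of the high dose that fell short of 6. In bZIP52 it was replicate 3, and in AT5G40460 replicates 1 and 2.

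Lists of stress pathways give the other genes measured beside the 49. Of the 20 named genes among the 49, only GSTU25 and UGT73B4 were on a list, that of detoxification. The 29 probe sets without a single gene could not be matched to the lists. On 10 lists with 235 genes, 37 probe sets outside the rule passed the filter and were tested. Against clean air 27 of the 37 rose in the high dose and 4 fell, where 22.8% of all tested probe sets rose and 30.1% fell (limma, adjusted p under 0.05), 52.9% together. The lists were chosen with earlier results of these data known, so the gap between these shares is a description and carries no test. With arrays scaled to the spike-in controls bioB, bioD and cre, risers made up 32.5% of all calls in place of 43.0%. The median difference of all probe sets then moved from -0.10 to -0.27, and 25 of the 37 rose. The bioC controls were left out of this scaling. They averaged 6.99 ± 0.21 outside, 6.53 ± 0.26 in clean air, 8.78 ± 0.13 in the low dose and 7.23 ± 0.23 in the high dose (log2, SD, n = 3). The cause of the higher bioC signal in the low dose was not tested. In the low dose 3 rose and 7 fell, where 11.8% and 11.4% of all did, 23.2% together. The number that rose in the low dose was 1 without replicate 3 of clean air or of the low dose, and the number that fell was 3 without replicate 2 or 3 of clean air. The median log2 difference of the 37 was 2.46 in the high and -0.52 in the low dose (-0.10 and -0.01 over all tested).

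Among chaperones all 6 tested genes rose in the high dose. Fes1A, an exchange factor for Hsp70, read 12.09, 12.14 and 12.50 in the high dose against 7.01, 6.36 and 6.55 in clean air, a log2 difference of 5.60 ± 0.24 (SE; adjusted p = 3.00e-08). AT5G48570, a peptidyl-prolyl isomerase of the heat response, rose by 5.51 ± 0.36. AT5G37670, a small heat shock protein, read 8.14, 9.88 and 10.43 against 5.25, 5.90 and 5.86 and rose by 3.82 (4.49 without replicate 1 of the high dose). The DnaJ gene AT2G20560 rose by 5.89 ± 0.40. In the low dose 1 of the 6 passed and it was lower, AT2G20560 (-1.31, adjusted p = 0.0372 in limma). No heat shock factor on the list of 21 had a named probe set.

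Of 6 detoxification genes 5 rose in the high dose and 1 fell. UGT73B5, the gene next to UGT73B4, read 11.18, 11.50 and 11.61 in the high dose against 4.40, 4.75 and 4.32 in clean air. Its log2 difference was 6.94 ± 0.25 (SE; adjusted p = 6.26e-09 in limma). AER, an alkenal reductase that removes reactive carbonyls, read 12.83, 12.47 and 12.39 against 7.87, 8.21 and 8.13 (log2 difference 4.49 ± 0.19, SE; adjusted p = 2.48e-08 in limma). The MATE transporter gene AT2G04070 rose by 6.31 ± 0.31. GSTU16, of the same class as GSTU25, went the other way, from 8.70, 9.12 and 9.26 to 7.44, 7.66 and 7.35, and it was also lower in the low dose, at 7.01, 7.47 and 7.82 (log2 difference -1.59, adjusted p = 0.00336 in limma). In the low dose 3 of the 6 fell and 0 rose.

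Protein turnover genes moved in both directions, with 5 of 7 higher and 1 lower in the high dose. PUB22, a ubiquitin ligase of immune signalling, read 8.06, 8.53 and 8.74 against 4.93, 4.89 and 6.74 in clean air (log2 difference 2.92 ± 0.64, SE; 3.53 without replicate 3 of clean air). The autophagy genes ATG8H and ATG8E rose by 1.77 ± 0.17 and 1.74 ± 0.21, and ATG8E was also higher in the low dose (0.79, adjusted p = 0.0207 in limma). PUB23 rose by 3.23 ± 1.22, with clean air at 4.09, 5.94 and 10.29. Its call held when plant 3 of clean air (4.98) or of the low dose was left out, and was lost in the other 10 of the 12 fits lacking 1 array (1.89 without replicate 1 of clean air, adjusted p up to 0.169 in limma).

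In the smaller lists 3 of 4 genes of the unfolded protein response rose, led by BZIP60 (2.97 ± 0.27, log2 difference, SE), and all 3 tested genes of the mitochondrial stress response did, led by AT2G41730 (8.97 ± 0.31). AT2G41730 was the single one of those 3 that also rose in the low dose (1.37, adjusted p = 0.0104 in limma). The probe set of AT2G41730 has the suffix x_at. Whether its probes also match other transcripts was not tested, so both rises are readings of this probe set. Of 6 calcium sensor genes 3 rose, CML37, CML38 and CML42. CML37 read 7.65, 10.14 and 10.69 in the high dose against 2.16, 2.16 and 8.10 in clean air, so that a single clean-air plant, replicate 3, overlapped with the high plants. Its log2 difference was 5.36 ± 1.45 (SE), and leaving out 1 array moved it from 4.37 (without replicate 1 or 2 of clean air) to 7.34 (without replicate 3), with 6.28 and 4.75 without replicate 1 or 3 of the high dose. CML38 rose by 5.02 ± 1.38 (3.74 and 6.84 without replicate 1 or 3 of clean air, which read 5.74 and 11.93). The third gene was CML42, which read 9.61, 9.25 and 9.02 in the high dose and 9.23, 8.45 and 9.46 in the low dose against 8.38, 7.60 and 6.83 in clean air. CML42 was called in both doses. Of 4 rapid stress transcription factors WRKY6 and STZ rose (STZ by 2.46 ± 0.57, or 3.18 if clean-air plant 3 was left out) and AT2G28200 fell by 1.41 (a call lost without any 1 plant of clean air or of the high dose, adjusted p up to 0.101). WRKY6, a factor of defence and senescence, rose by 3.17 ± 0.33 over clean air, but the plants outside the chamber read 8.18, 7.17 and 8.42, near its 8.77, 9.68 and 9.04 in the high dose. The jasmonate list had a single tested gene, JMT, which passed as lower (-1.29, adjusted p = 0.0369 in limma). JMT read 2.6, 3.1 and 3.5 in the high dose against 4.1, 4.2 and 4.7 in clean air. Its fall thus went from just above the level 4 to values that carry little information. Leaving out any single plant of clean air, or the high-dose plants 1 or 2, removed the call (adjusted p up to 0.124 in limma). The list of tryptophan and camalexin synthesis had no named probe set.

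**Figure D4:**
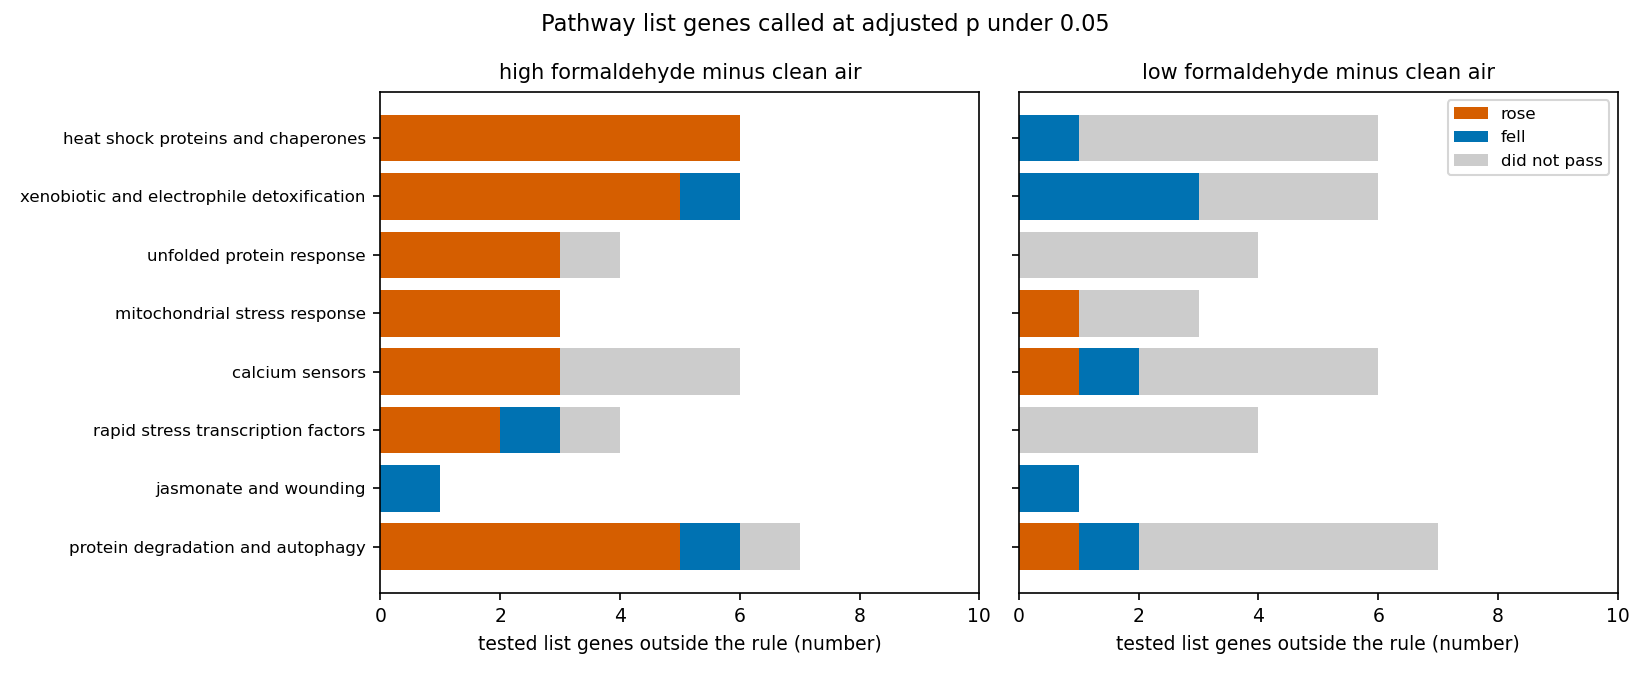
Number of tested list genes outside the rule (horizontal axis) that rose, fell or did not pass at an adjusted p under 0.05 (colours) in 8 pathway lists (rows), for the high dose (left) and the low dose (right) against clean air. In the high dose 27 of the 37 genes rose, and in the low dose 3 did. The lists were chosen with earlier results of these data known.

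Within 2 genes on either side of the 20 named genes in the genome, 26 probe sets of 25 genes outside the rule were tested. In the high dose 6 of the 26 rose (23.1%) and 10 fell (38.5%), where 22.8% and 30.1% of all tested probe sets did. Their median log2 difference was -0.40, and that of all tested was -0.10. UGT73B5 beside UGT73B4 was among the 6. All 3 tested neighbours of AT4G28460 rose, AT4G28440 by 0.61, AT4G28450 by 0.93 and AT4G28480 by 1.77. All tested neighbours of AT3G26470 fell (AT3G26450, -1.57, and AT3G26490, -1.14). Those of AT2G35480 fell too (AT2G35470, -1.32, and AT2G35490, -0.69). These genes were picked after their values were seen. Of the 20 named genes, 5, 7, 2, 4 and 2 lay on chromosomes 1 to 5. Of all named probe sets 25.7%, 16.4%, 20.4%, 14.6% and 22.4% lie there. The share of chromosome 2 was 35.0%, and no test was made on these small counts. On chromosome 2, AT2G31945 and AT2G32190 were 28 genes apart, with AT2G32020, of the set-aside probe sets, 12 and 16 genes from them.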

How the data were processed

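Leaf RNA of 12 plants, 4 groups of 3, was measured on Affymetrix ATH1-type arrays of 22810 probe sets. The authors deposited log2 expression values made with GCRMA, per the submitters' processing notes, which corrects background and normalizes arrays. Its version and options are not given in the sources, and the values' range set the log2 scale. Values near the floor carry little order, and 3 arrays per group limit the precision.

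The 64 AFFX control probe sets were left out. A linear model of the 4 groups was fitted with limma 3.58.1 in R 4.3.3 (lmFit, eBayes with trend) to the 13874 probe sets above 4 on at least 3 arrays, with Benjamini-Hochberg adjustment, and was tested on simulated data. Probe sets were named through GEO's platform table (14016 listed, 13513 with 1 gene, 503 with several) with symbols of TAIR10.1 from RefSeq (13436 matched). No sequence table was used, so the planned motif counts in promoters were not run. Members and gene lists were chosen with earlier results of these data known. Values of all 3 high arrays are given for the 12 named members with the highest mean, the 6 with the widest range and the 6 with the lowest mean. From each list up to 4 called genes outside the rule with the largest difference are named. Gene order was taken over protein-coding genes. Roles are background knowledge. Plotting used matplotlib 3.10.9 (Python 3.11.15).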

Additional observations from a re-analysis of the deposited data

How the results depend on the processing

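The count of 49 was 73 and 34 with the upper limit at 5 and 7, and 32 and 77 with the lower limit at 3 and 5, in each case by the construction of the rule. It was 47 after quantile normalization (47 of the 49 shared) and 47 with spike-in scaling (45 shared), and 49 to 71 when 1 array was left out, highest without replicate 1 of the high dose. Over all probe sets 7337 were called between high dose and clean air (6111 to 7490 without 1 array), 3224 between low dose and clean air (1601 to 3385; the lowest lacked clean-air plant 3, and 1671 were called when plant 2 was left out) and 422 between clean air and the outside (65 to 542; 91 and 65 when clean-air plants 1 and 2, and 270, 149 and 221 when outside plants 1, 2 and 3 were left out). The last count was 186 without a filter, 871 with spike-in scaling and 122 from the 6 arrays alone, and the cause was not tested. Spike-in scaling moved the share of risers among the calls from 50.8% to 24.8% for the low dose and from 55.9% to 89.0% for clean air against outside, and the median differences from -0.01 to -0.18 and from 0.02 to 0.28. With the replicate number as a block 7208, 3121 and 346 were called, and the list genes that rose in the high dose numbered 27 as before. No call among the named list genes changed with the block. The deviations from the group mean correlated at r from -0.33 to 0.33 between same-numbered plants. Between differently numbered plants r ran from -0.38 to 0.33. With 3 plants per group these values cannot settle whether the numbers pair plants. The count of 27 ran from 25 to 28 under all settings. The count of 3 for the low dose ran from 1 to 3. Both counts were added after seeing the data. Of the 25 list genes named by the rule, each under all alternatives (JMT not with the filter at 6, which it failed), no difference changed sign, and 26 refits lost a call and 473 did not, the lost ones all of AT2G28200, JMT or PUB23.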
